A study of Mus musculus with 95 samples.

Results

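Blood stem cells and a population of blood progenitors were compared in early regeneration after transplant. Of 95 libraries in the study, 18 entered the comparison, chosen by their titles alone. They were 9 libraries of HSC (haematopoietic stem cells) and 9 of HPC-1 (a haematopoietic progenitor population), with 3 of each at 3, 4 and 5 weeks after transplant. All came from bone marrow of B6.SJL mice labelled as 8 to 12 weeks old that had received 900 cGy of irradiation, a lethal dose, and 8000 donor LSK cells (lineage-negative cells with KIT and SCA-1 at the surface). HSC and HPC-1 thus share irradiation, graft and time, and differ in the population named on the label. In addition, 8 HSC and 8 HPC-1 libraries from untreated mice (steady state) and 15 and 15 from 6 to 16 weeks after transplant were used to set the early differences side by side with those at other times. Both sets are labelled with the same age of 8 to 12 weeks, and the later set with the same dose and number of donor cells.

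Several limits belong to the libraries themselves. The labels give a single sort gate, that of CD48-negative CD150-positive LSK cells, for every population, so how HPC-1 were gated is not stated. Nor do they state if each library of a group came from an animal of its own, so that p measures the spread between these samples, which may be technical. SMART-Seq v4 copies RNA from few cells and was read in bulk, so that fewer cells of a type and less RNA per cell cannot be told apart in any difference below.

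Total counts were 5129389 to 7908388 per HSC library (median 6252159) and 4179040 to 5929923 per HPC-1 library (median 4690472). Genes with a count numbered 12194 ± 1150 in HSC and 13339 ± 1882 in HPC-1 (SD, n = 9 each). Some libraries stood apart. The 3 week HSC libraries (all 3) and the first of the 4 week ones had profiles nearer to the mean of HPC-2 (the third population of the study) than to that of HSC at 6 to 16 weeks, with Spearman rho of 0.834 to 0.902 against 0.816 to 0.900 across genes. The other 5 HSC libraries were nearest HSC, and all 9 HPC-1 libraries were nearest HPC-1. HPC-1 at 5 weeks replicate 1 had nearly the same counts as an HPC-2 library outside the comparison (chi-square per degree of freedom 3.82, against 23.8 or more between any pair of the 18). HSC at 3 weeks replicate 1 carried neutrophil and macrophage transcripts, at a summed 6983 CPM over the 12 genes listed for those cells (CPM being the count of a gene over the total of its library, on the usual scale). The other 8 HSC libraries had 23.4 to 560 CPM over that list, and the 9 HPC-1 libraries 26.3 to 1194 CPM.

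HSC sit at the top of the blood hierarchy, divide rarely at rest and can refill the whole system after transplant, while multipotent progenitors divide more often and begin to show lymphoid or myeloid genes. Platelet and megakaryocyte genes are known to be expressed at low level in a share of mouse HSC, and these genes become more prominent with age and stress. In the standard mouse scheme CD150 (Slamf1) marks HSC, CD48 marks progenitors, and CD34 and FLT3 appear as HSC give rise to multipotent progenitors.

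The sort markers Slamf1 and Cd48 went with the population names, while in HPC-1 both went against the CD48-negative CD150-positive gate that the labels give for every population. Slamf1, the gene of CD150, was at 29.5, 107 and 194 CPM (lowest, median and highest library) in HSC and at 0, 0 and 15.6 CPM in HPC-1. Cd48 was at 0, 27.4 and 65.6 CPM in HSC and at 499, 959 and 1627 CPM in HPC-1. The 9 HSC libraries did not overlap with the 9 HPC-1 libraries in either gene, and as genes of the sort they are a check of the population names rather than a result. Kit, the stem cell factor receptor, had a log2 change of -0.00 (SE 0.49, adjusted p = 0.999) and Ly6a, the gene of SCA-1, one of -0.24 (SE 0.33, adjusted p = 0.919), both being part of the gate that the populations share. Among other markers of HSC, Hlf (a transcription factor of self-renewal) was at 15.0 to 102 CPM in HSC and at 6.18 to 92.5 CPM in HPC-1. Its log2 change was 0.19 (SE 0.49, adjusted p = 0.978). Mecom, a transcription factor of HSC, was at 8.65 to 82.5 CPM in HSC and at 0 to 24.1 CPM in HPC-1 (adjusted p = 0.355). Procr, the endothelial protein C receptor, was at 0.480 to 87.3 CPM in HSC and at 0 to 27.1 CPM in HPC-1 (adjusted p = 0.427). These 3 genes were thus not called, and Fgd5 was too low to be tested.

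Of 13026 genes tested, 458 were called (3.52%), of which 164 were higher in HSC (1.26%) and 294 lower (2.26%). A gene was called when its adjusted p was under 0.05 in the edgeR quasi-likelihood F test of HSC minus HPC-1 with week as a block. The direction was the same at 3, 4 and 5 weeks for 450 of the 458. The median log2 change was 3.57 over the genes called higher. Over those called lower it was -6.38 as fitted, and -6.11 with the 113 genes that had no count in any HSC library set at the smallest fold their counts allow, against -0.11 over all genes tested. All 9 HSC libraries lay above all 9 HPC-1 libraries for 58 of the genes called higher, and below them for 65 of those called lower. Over all genes tested such a separation occurred for 61 genes upward (0.468%) and 77 downward (0.591%). A further fit left out the HSC libraries nearest HPC-2, and with them the HPC-1 libraries at 3 weeks, which were nearest HPC-1. It has 5 HSC and 6 HPC-1 libraries and is meant below by "without the libraries nearest HPC-2". In it 94 genes were called, 42 higher and 52 lower, 86 of them among the 458.

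**Figure D1:**
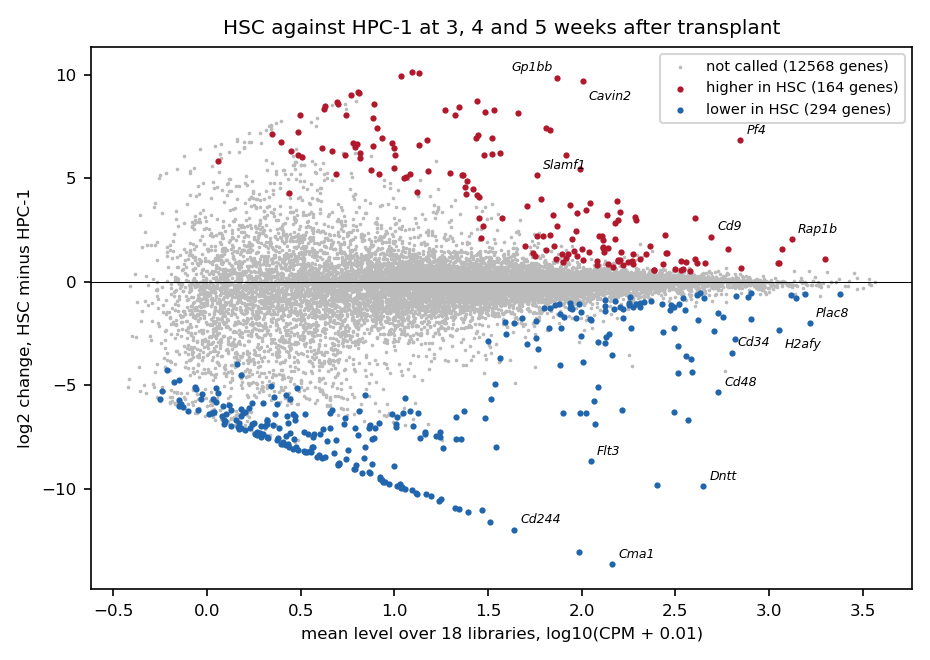
Log2 change of HSC minus HPC-1 against the mean level over the 18 libraries on a log10 axis, 1 point per gene tested. The 164 genes called higher in HSC are red, the 294 called lower blue, and 113 of those called lower had no count in any HSC library.

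Platelet and megakaryocyte genes were the group with the most members higher in HSC. Of 19 tested, 13 were called higher and 0 lower, with a median log2 change of 4.50, against -0.11 over all genes. In 11 of the 19 every HSC library lay above every HPC-1 library. Without the libraries nearest HPC-2, 7 of the 19 were called higher and 0 lower (median 4.01). Their summed level was 3408 to 5322 CPM in HSC and 447 to 1079 CPM in HPC-1.

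Pf4, which encodes platelet factor 4, a chemokine stored in platelet granules, is ENSMUSG00000029373 on the plus strand of chromosome 5 (90772435 to 90773383, GRCm38). In HSC it was at 650, 615 and 734 CPM at 3 weeks, at 1484, 1304 and 1338 CPM at 4 weeks and at 2580, 2188 and 1644 CPM at 5 weeks. In HPC-1 it was at 6.86, 4.21 and 6.46 CPM at 3 weeks, at 6.24, 22.1 and 1.84 CPM at 4 weeks and at 17.1, 24.8 and 20.0 CPM at 5 weeks. The populations were far apart at every week, with a log2 change of 6.84 (SE 0.37, adjusted p = 2.14e-09). The change was 6.77 at 3 weeks, 7.08 at 4 weeks and 6.68 at 5 weeks, and the 5 week minus 3 week difference was -0.09 (adjusted p = 1.00). Pf4 levels in HSC were higher at each later week without overlap of the 3 libraries, which is a description with no test.

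Ppbp, the gene of pro-platelet basic protein, lies just before Pf4 on the same strand (chromosome 5, 90768518 to 90770063). It had counts in 8 HSC libraries (0, 33.8 and 117 CPM) and in 1 HPC-1 library, at 1.38 CPM, with a log2 change of 8.46 (SE 1.28, adjusted p = 0.000572). Cavin2, which encodes a coat protein of caveolae found in platelets (ENSMUSG00000045954, chromosome 1, 51289126 to 51302960, plus strand), was at 34.0, 126 and 484 CPM in HSC. In HPC-1 it had counts in 1 library, at 1.78 CPM. The log2 change was 9.69 (SE 0.95, adjusted p = 4.80e-06), and no library of one population reached the range of the other. Gp1bb, a subunit of the platelet receptor for von Willebrand factor, was at 49.7, 127 and 252 CPM in HSC and at most at 0.922 CPM in HPC-1 (a log2 difference of 9.87, SE 0.68, adjusted p = 4.23e-08). Its exons overlap those of Sept5 on the same strand, so that reads of the pair may be shared.

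Other receptor and adhesion genes of the lineage went the same way. Vwf, the gene of von Willebrand factor, averaged 65.8 ± 50.5 CPM in HSC against 0.449 ± 0.627 CPM in HPC-1 (SD, n = 9 each; log2 change 6.98, adjusted p = 0.000386). Treml1, a receptor of platelet granules, was at 25.6, 63.7 and 76.0 CPM in HSC and had counts in 1 HPC-1 library, at 1.25 CPM (a log2 difference of 8.77, SE 1.04, adjusted p = 4.92e-05). Gp9 averaged 112 ± 20.3 CPM in HSC against 8.61 ± 6.72 CPM in HPC-1, and Cd9, a tetraspanin of platelets and HSC, 810 ± 180 CPM in HSC against 174 ± 48.8 CPM in HPC-1. Both were called, with log2 changes of 4.00 and 2.19 (adjusted p = 0.000572 and 1.16e-06). Itga2b, the integrin chain of the platelet fibrinogen receptor, was at 1.92, 35.7 and 135 CPM in HSC and at 0, 6.75 and 23.2 CPM in HPC-1, overlapped and was not called (adjusted p = 0.387).

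Promoter windows of 3 genes, chosen after their values were seen, are shown as 1 example each of the platelet, lymphoid and mast cell lists. Each window is the 250 bases before the RefSeq transcript start (GRCm38.p6), 5′ to 3′ on the strand of the gene, and capitals mark matches to a GATA motif (the letters AGATAA), an E-box (the letters CAGCTG) or a RUNX motif (the letters TGTGGT), looked for on both strands. Pf4 is at chr5:90772185-90772434 on the plus strand, Dntt at chr19:41029025-41029274 on the plus strand and Cpa3 at chr3:20242182-20242431 on the minus strand.
Pf4: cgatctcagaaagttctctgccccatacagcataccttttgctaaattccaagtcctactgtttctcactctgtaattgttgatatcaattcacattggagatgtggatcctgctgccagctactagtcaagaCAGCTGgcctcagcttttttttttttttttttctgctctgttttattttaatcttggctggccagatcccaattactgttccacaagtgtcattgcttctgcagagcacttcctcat
Dntt: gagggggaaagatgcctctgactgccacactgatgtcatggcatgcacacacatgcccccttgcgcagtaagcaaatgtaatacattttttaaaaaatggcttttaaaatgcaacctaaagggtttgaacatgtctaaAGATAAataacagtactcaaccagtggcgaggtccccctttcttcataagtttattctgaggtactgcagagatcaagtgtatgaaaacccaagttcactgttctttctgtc
Cpa3: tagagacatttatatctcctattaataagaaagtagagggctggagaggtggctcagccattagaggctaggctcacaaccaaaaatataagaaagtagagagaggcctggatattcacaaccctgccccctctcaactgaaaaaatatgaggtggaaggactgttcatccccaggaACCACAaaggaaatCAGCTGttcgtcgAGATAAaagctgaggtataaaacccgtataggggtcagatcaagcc
The E-box match of Pf4 begins 117 bases before the start, the GATA match of Dntt 112 bases before it, and the matches of Cpa3 at 73 bases (RUNX, on the other strand), 59 bases (E-box) and 46 bases (GATA). Windows were found for 304 of the 458 called genes. GATA letters were in 5.52% of 163 windows of genes called higher and 9.81% of 265 windows of genes called lower, against 6.15% of 12042 windows of all genes tested and 9.99% of 32851 windows in the whole table. For the E-box the shares were 14.1%, 13.6%, 11.4% and 13.0% in that order, and for RUNX 15.3%, 20.0%, 11.4% and 14.0%. Of the 7 windows of 6 called mast cell and basophil genes on the list, 4 held the GATA letters and 4 the RUNX letters. For called platelet and megakaryocyte genes, 1 of 9 windows held the GATA letters and 1 the RUNX letters. For called lymphoid genes it was 1 of 11 windows for each. An E2F motif (the letters TTTCGCGC or TTTGGCGC) was in 0.613% of windows of genes called higher and 0% of those called lower, against 1.27% of all genes tested and 0.654% of the whole table, and an interferon motif in 3.07%, 1.13%, 2.82% and 2.98%. These are matches of letters in a fixed window and say nothing of binding.

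Stem cell genes differed more unevenly. Of 29 stem cell identity genes tested, 10 were called higher and 0 lower (median log2 change 1.88), and 2 higher without the libraries nearest HPC-2 (median 1.42). The summed level of the list was 2859 to 4200 CPM in HSC and 1015 to 1380 CPM in HPC-1. Pdzk1ip1, a small membrane protein enriched in HSC, was at 198, 348 and 413 CPM in HSC and at 15.8, 45.1 and 102 CPM in HPC-1, without overlap (a log2 difference of 3.00, SE 0.26, adjusted p = 1.13e-06). Mllt3, a subunit of the transcription elongation machinery that maintains HSC, was at 85.6, 287 and 407 CPM in HSC and at 9.45, 21.7 and 47.5 CPM in HPC-1 (a log2 difference of 3.25, SE 0.34, adjusted p = 9.88e-06). Both genes were apart in all 18 libraries.

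Of 13 homeobox genes tested, 3 were called higher and 0 lower (median log2 change 1.34), and 0 of 13 were called without the libraries nearest HPC-2 (median 1.14). Meis1, a cofactor of HOX proteins, was at 172, 229 and 297 CPM in HSC and at 63.2, 68.4 and 135 CPM in HPC-1 (a log2 difference of 1.45, SE 0.20, adjusted p = 0.000223). Hoxb5, a marker of long-term HSC, was at 0, 13.3 and 24.9 CPM in HSC and at 0, 0 and 2.19 CPM in HPC-1. It was called (a log2 difference of 5.41, SE 1.40, adjusted p = 0.0378), but the call was lost in 13 of the 18 fits that leave out 1 library, 2 HSC libraries at 5 weeks had no count, and an antisense gene overlaps its exons.

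Genes reported to rise in HSC of old mice were called higher in part. Of 20 tested, 9 were called higher, 0 lower and 11 not called (median log2 change 3.95), and 5 were higher without the libraries nearest HPC-2. Of the 9, 3 genes, Cavin2, Slamf1 and Mllt3, stand on another list above, and Slamf1, as a gene of the sort, is a check of the population names rather than a result. Nupr1, a stress-induced chromatin protein, was at 51.8, 122 and 240 CPM in HSC and at 0, 0 and 3.71 CPM in HPC-1 (a log2 difference of 7.36, SE 0.88, adjusted p = 5.05e-05). Aldh1a1, a retinaldehyde dehydrogenase, was at 7.32, 92.0 and 174 CPM in HSC and at 0, 0 and 4.72 CPM in HPC-1 (a log2 difference of 8.14, SE 1.06, adjusted p = 0.000134). Neither gene overlapped between populations. Clu, the gene of clusterin, averaged 127 ± 98.0 CPM in HSC against 1.82 ± 4.61 CPM in HPC-1 (log2 change 7.45, adjusted p = 0.0107).

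Multipotent progenitor genes were the mirror of this. Of 16 tested, 11 were called lower in HSC and 0 higher, the other 5 had log2 changes below 0 as well, and in all 11 every HSC library lay below every HPC-1 library. Without the libraries nearest HPC-2, 10 were called lower and 0 higher. The list summed to 930 to 2158 CPM in HSC and 7919 to 11452 CPM in HPC-1. Cd34 (ENSMUSG00000016494, chromosome 1, 194938819 to 194961279, plus strand), a sialomucin of progenitors, was at 16.2, 104 and 185 CPM in HSC and at 332, 1232 and 1737 CPM in HPC-1 (a log2 difference of -3.43, SE 0.33, adjusted p = 3.64e-06). Flt3, the receptor of FLT3 ligand, had counts in 2 HSC libraries, up to 6.64 CPM, and was at 75.9, 177 and 437 CPM in HPC-1 (a log2 difference of -8.67, SE 1.10, adjusted p = 9.64e-05). Gain of CD34 and FLT3 is the textbook step from HSC to multipotent progenitor. Both genes were apart in all 18 libraries.

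Plac8, a small protein rich in cysteine that marks progenitors, was at 362, 660 and 1115 CPM in HSC and at 1190, 2622 and 5097 CPM in HPC-1. The log2 change was -2.01 (SE 0.25, adjusted p = 8.79e-05). Cd244, a SLAM family receptor used in sorting schemes, had no count in any HSC library and was at 54.5, 82.2 and 180 CPM in HPC-1, at least 1689-fold lower in HSC against a floor of 3 counts over the 9 libraries (adjusted p = 2.31e-06). Nkg7, a granule protein of cytotoxic lymphocytes, was at 165, 300 and 448 CPM in HSC and at 519, 704 and 1137 CPM in HPC-1 (a log2 difference of -1.50, SE 0.18, adjusted p = 4.36e-05). Groups were separate in each of these 3 genes, with Plac8 and Nkg7 the closest to an overlap.

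**Figure D2:**
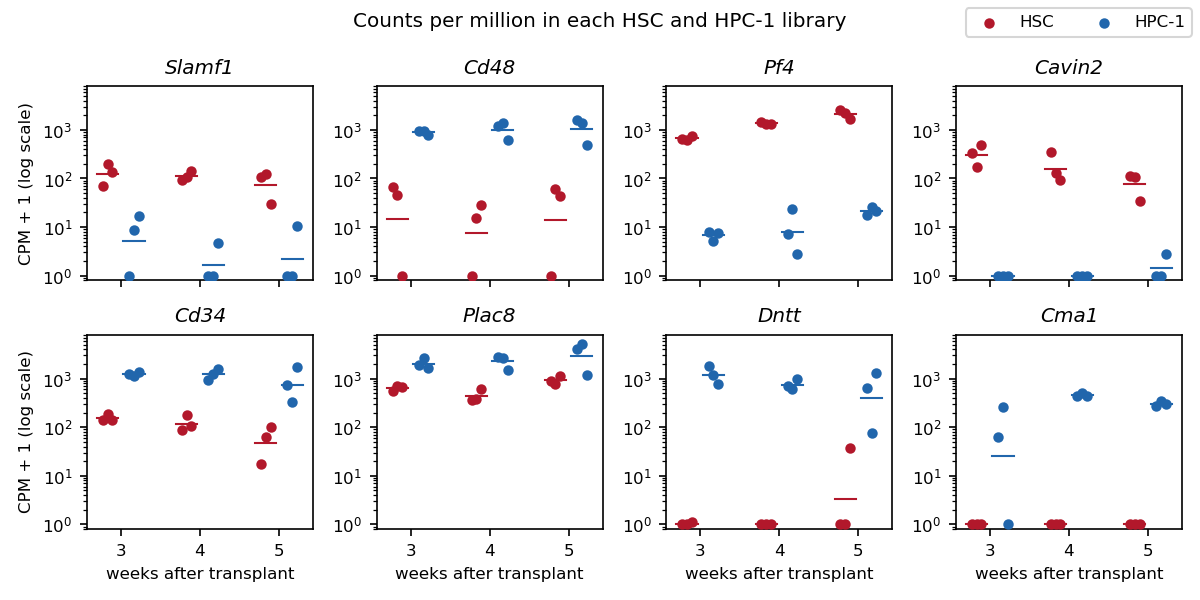
CPM plus 1, on a log10 axis, for 8 genes in each library, with HSC left of HPC-1 at each week after transplant and a line at the geometric mean of 3 libraries. Slamf1, Pf4 and Cavin2 are above HPC-1 in every HSC library, Cd48, Cd34, Plac8 and Dntt below it, and Cma1 is at 0 in all 9 HSC libraries and 1 HPC-1 library at 3 weeks.

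Part of the lymphoid genes were lower in HSC. Of 21 tested, 8 were called lower, 0 higher and 13 not called (median log2 change -3.01), and without the libraries nearest HPC-2, 3 of 17 tested were called lower (median -1.53). The list median was -5.35 at 3 weeks, -4.01 at 4 weeks and -0.22 at 5 weeks, a description with no test. Dntt, the terminal transferase that adds bases at joints of rearranged antigen receptor genes (ENSMUSG00000025014, chromosome 19, 41029275 to 41059525, plus strand), had counts in 2 HSC libraries, 0.126 CPM at 3 weeks and 36.5 CPM at 5 weeks replicate 3. In HPC-1 it was at 75.8, 770 and 1776 CPM (a log2 difference of -9.86, SE 1.49, adjusted p = 0.000572), so that even the highest HSC library was below the lowest HPC-1 library. Ighm, the immunoglobulin mu chain locus, was at 0, 0 and 34.9 CPM in HSC and at 376, 766 and 1035 CPM in HPC-1 (a log2 difference of -6.70, SE 1.07, adjusted p = 0.00102). Satb1, a chromatin organiser that favours the lymphoid fate, had counts in 2 HSC libraries (up to 20.7 CPM) and was at 70.8, 158 and 239 CPM in HPC-1 (a log2 difference of -6.33, SE 1.29, adjusted p = 0.00749).

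Other genes of antigen receptors and lymphoid growth had no count in HSC. Rag2, of the recombinase, was at 0, 37.8 and 79.3 CPM in HPC-1, at least 880-fold lower in HSC (adjusted p = 0.00106). Il7r, the receptor of interleukin 7, averaged 18.8 ± 16.4 CPM in HPC-1 and was at least 382-fold lower in HSC (adjusted p = 0.0107). Trbc1 and Tcrg-C1, constant segments of T cell receptor loci that are not on the list, averaged 49.1 ± 51.4 and 65.1 ± 50.2 CPM in HPC-1, and were at least 979-fold and 1269-fold lower in HSC (adjusted p = 0.000386 and 0.00171). Trbc1 has a near-identical neighbour, Trbc2, and reads of the pair cannot be assigned with certainty. Markers of mature lymphocytes were mostly too low to be tested. Of 7 B cell genes only Cd79a and Cd79b and of 8 T and NK cell genes only Trbc2 and Klrb1c were high enough to be tested, and none of these 4 was called, with summed levels of 33.0 to 120 CPM in HSC and 0 to 157 CPM in HPC-1 for B cells, and 0 to 17.4 CPM in HSC and 0.228 to 55.7 CPM in HPC-1 for T and NK cells. Trbc2 missed the threshold with a log2 change of -6.13 (adjusted p = 0.0810), and it was called under 3 of 31 alternatives (adjusted p from 0.000566 to 0.688).

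Mast cell and basophil genes held the widest differences. Of 11 tested, 7 were called lower in HSC and 0 higher, and 6 of them had no count in any HSC library. The median log2 change was -9.97 as fitted and -8.68 with these 6 at their bound. Without the libraries nearest HPC-2, 3 of the 11 were called lower. The list summed to 13.3, 39.5 and 151 CPM in HSC and to 352, 1476 and 2045 CPM in HPC-1. Cma1, the mast cell chymase (ENSMUSG00000022225, chromosome 14, 55941451 to 55944675, minus strand), was at 63.1, 261 and 0 CPM in HPC-1 at 3 weeks, at 447, 511 and 435 CPM at 4 weeks and at 267, 341 and 297 CPM at 5 weeks. It was at least 5787-fold lower in HSC (adjusted p = 0.000389). Tpsb2, a mast cell tryptase, was at 0, 208 and 450 CPM in HPC-1 and at least 3855-fold lower in HSC (adjusted p = 0.000619). The same HPC-1 library at 3 weeks, replicate 3, had no count of Cma1 or Tpsb2, and all others had both.

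Mcpt8, a protease of basophils, was at 7.18, 45.5 and 74.5 CPM in HPC-1 and at least 888-fold lower in HSC (adjusted p = 8.21e-05). Mcpt4, another chymase that is not on the list, had counts in 7 HPC-1 libraries, up to 182 CPM, and was at least 1132-fold lower (adjusted p = 0.00159). The chymases and tryptases belong to families of close copies on chromosomes 14 and 17, so which member the reads came from is uncertain. Cpa3, a carboxypeptidase of mast cells and of some progenitors, was at 0, 3.36 and 85.3 CPM in HSC and at 257, 560 and 937 CPM in HPC-1 (a log2 difference of -6.29, SE 1.02, adjusted p = 0.00106). Cpa3 was the only one of the 7 called members with counts in HSC, and the populations were separate.

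Granulocyte-monocyte genes were mostly lower in HSC, while calls among erythroid genes went in both directions. Of 18 granulocyte-monocyte genes, 3 were called lower in HSC and 1 higher (median log2 change -1.64). Called or not, 2 of the 18 had a log2 change above 0. Spi1, the gene of the transcription factor PU.1, was at 21.8, 45.0 and 95.4 CPM in HSC and at 60.3, 151 and 209 CPM in HPC-1 (a log2 difference of -1.46, SE 0.22, adjusted p = 0.000534). Irf8, a factor of monocytes and dendritic cells, was at 0, 0 and 37.9 CPM in HSC and at 15.4, 54.9 and 151 CPM in HPC-1 (a log2 difference of -4.93, SE 1.26, adjusted p = 0.0353), and Prtn3, proteinase 3, was lower by a log2 change of -1.36 (SE 0.36, adjusted p = 0.0388). Lyz2, the lysozyme of myeloid cells, was the member that was higher, at 551, 908 and 1336 CPM in HSC and at 293, 559 and 715 CPM in HPC-1 (a log2 difference of 0.70, SE 0.18, adjusted p = 0.0374). Its highest HSC library was replicate 1 at 3 weeks, the one with neutrophil transcripts. Without that library Lyz2 had a log2 difference of 0.56 (adjusted p = 0.0713), and 4 of the 18 genes were called lower and 0 higher (median -2.68). The calls of Lyz2, Prtn3 and Irf8 were lost in 14, 13 and 11 of the 18 fits that leave out 1 library. Without the libraries nearest HPC-2, 1 of the 18 granulocyte-monocyte genes was called lower and 0 higher. None of 10 neutrophil and macrophage genes tested was called.

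Of 19 erythroid genes, 2 were called higher and 1 lower, and 1 higher and 0 lower without the libraries nearest HPC-2. The shares over all genes tested were 1.26% higher and 2.26% lower. Car2, carbonic anhydrase 2, was at 1986, 2613 and 3492 CPM in HSC and at 740, 1153 and 1740 CPM in HPC-1, without overlap (a log2 difference of 1.11, SE 0.15, adjusted p = 0.000303). Car1, carbonic anhydrase 1, went the other way, at 0, 25.3 and 272 CPM in HSC and at 76.5, 606 and 1573 CPM in HPC-1 (a log2 difference of -4.36, SE 0.99, adjusted p = 0.0160). Gata1, the master factor of the erythroid and megakaryocyte lineages, was at 155, 272 and 279 CPM in HSC at 3 weeks, at 261, 193 and 164 CPM at 4 weeks and at 30.6, 15.2 and 28.5 CPM at 5 weeks. In HPC-1 it was at 23.3, 55.1 and 62.7 CPM at 3 weeks, at 41.8, 41.2 and 47.5 CPM at 4 weeks and at 0, 0 and 11.4 CPM at 5 weeks. HSC were above HPC-1 at each week (a log2 difference of 2.45, SE 0.57, adjusted p = 0.0186), but the 3 HSC libraries at 5 weeks lay below the highest HPC-1 libraries at 3 and 4 weeks. The high Gata1 values in HSC were those of the 3 and 4 week libraries, 4 of which were nearest HPC-2. Without these 4 and the HPC-1 libraries at 3 weeks, the log2 difference was of similar size, 2.51, but was not called (adjusted p = 0.331). That fit has fewer libraries, 5 of HSC and 6 of HPC-1.

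**Figure D3:**
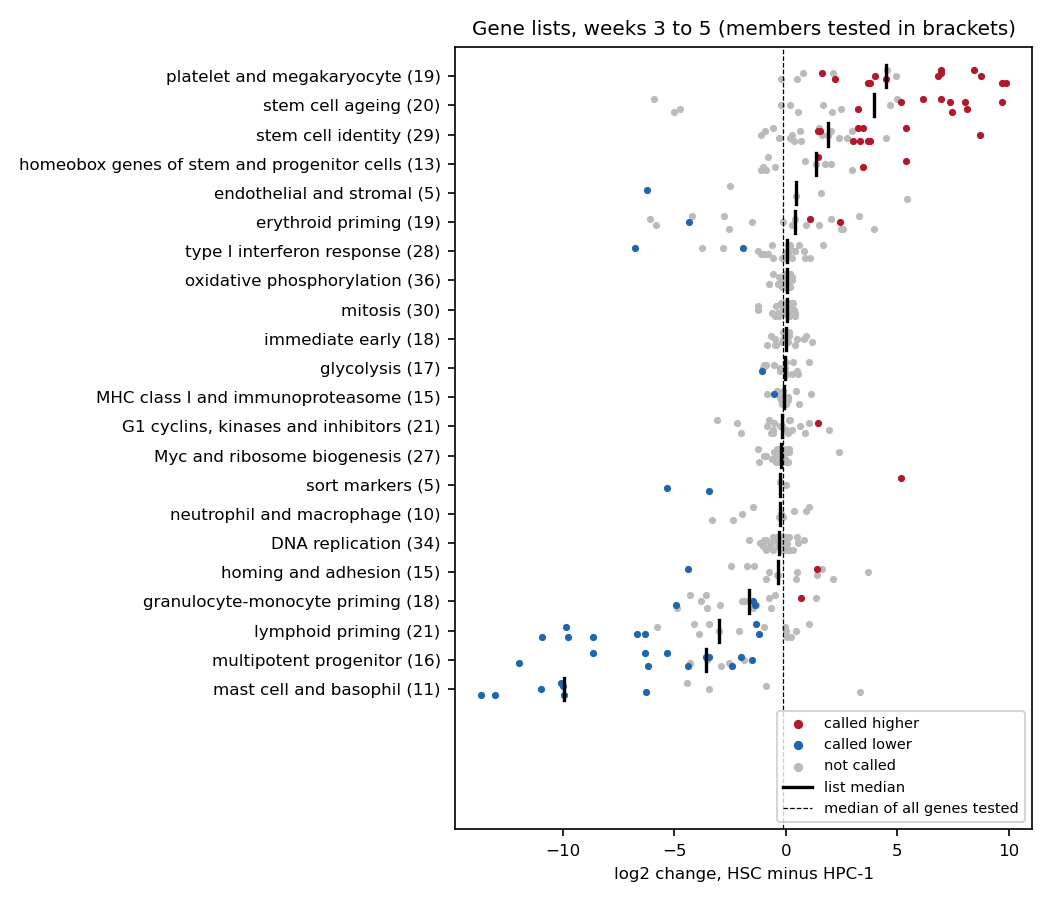
Log2 change of HSC minus HPC-1 for each tested member of 22 gene lists with at least 5 tested members, 1 list a row, ordered by the list median (thick line), with the median of all genes dashed. Platelet, ageing and stem cell lists lie to the right, multipotent progenitor, lymphoid and mast cell lists to the left, and cell cycle and metabolic lists lie around the dashed line.

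No gene of the replication and mitosis lists was called at these weeks. This covers 34 DNA replication and 30 mitosis genes, with median log2 changes of -0.29 and 0.03, against -0.11 over all genes. DNA replication genes summed to 4076, 6243 and 9726 CPM in HSC and to 4246, 7071 and 9629 CPM in HPC-1, and mitosis genes to 2907, 5624 and 7253 CPM in HSC and to 2586, 4832 and 6238 CPM in HPC-1. Birc5, the gene of survivin, a member of the chromosomal passenger complex, was at 214, 386 and 623 CPM in HSC and at 119, 327 and 420 CPM in HPC-1 (a log2 difference of 0.38, SE 0.205, adjusted p = 0.508). Cdkn2d, an inhibitor of CDK4 and CDK6, was the only one of 21 genes of the G1 phase that was called, at 75.0, 166 and 192 CPM in HSC and at 15.5, 62.1 and 85.2 CPM in HPC-1 (a log2 difference of 1.45, SE 0.27, adjusted p = 0.00337). Its call was lost under 4 of 33 alternatives, among them without the libraries nearest HPC-2 (adjusted p = 0.176), where 0 of the 21 were called. Over all genes tested, 1.26% were called higher. At steady state 2 of the 32 DNA replication genes tested were called lower in HSC, Pcna and Tyms, with log2 changes of -0.88 and -1.27. At 3 to 5 weeks these were -0.12 and 0.03, and the early minus steady-state differences, 0.76 (adjusted p = 0.415) and 1.30 (adjusted p = 0.314), were not called.

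Metabolic, interferon and antigen presentation genes were mostly not called. There were 0 calls among 36 oxidative phosphorylation, 27 Myc and ribosome biogenesis and 18 immediate early genes, with median log2 changes of 0.05, -0.23 and -0.01. The immediate early median was 0.81 at 3 weeks, -0.16 at 4 weeks and -0.54 at 5 weeks, with no test. At 5 weeks HPC-1 replicate 3 stood apart from replicates 1 and 2 in list sums. It had 13863 CPM of immediate early genes (others 4423 and 4471) and 12731 CPM of oxidative phosphorylation genes (others 23272 and 26805). For glycolysis genes it had 4903 CPM (others 2275 and 2103). Myc is a transcription factor of the ribosome programme. It was at 31.2, 233 and 657 CPM in HSC and at 105, 500 and 1222 CPM in HPC-1 (a log2 difference of -0.96, SE 0.31, adjusted p = 0.0987). Of 17 glycolysis genes, Pgam1, phosphoglycerate mutase, was called lower (a log2 difference of -1.09, SE 0.26, adjusted p = 0.0197). Of 28 interferon response genes, Ifi27l2a was called lower (a log2 difference of -1.90, SE 0.43, adjusted p = 0.0146), as was Mx1, an antiviral GTPase at a mean of 0.0148 CPM in HSC against 4.14 CPM in HPC-1. Of 15 genes of MHC class I and the immunoproteasome, Psmb8, a catalytic subunit, was lower by a log2 change of -0.54 (SE 0.13, adjusted p = 0.0299), a call lost in 10 of the 18 fits that leave out 1 library. The call of Pgam1 was lost without HPC-1 at 4 weeks replicate 3, and that of Mx1 without HSC at 4 weeks replicate 3 or HPC-1 at 5 weeks replicate 1. Without the libraries nearest HPC-2, no gene of the glycolysis, interferon and MHC class I lists was called. Over all genes tested, 2.26% were called lower.

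Homing genes gave 2 calls among 15, 1 in each direction, and 1 lower and 0 higher without the libraries nearest HPC-2. Over all genes tested 1.26% were called higher and 2.26% lower, so that so few calls say little of the list. Itga6, the integrin alpha 6 chain that binds laminin, was at 43.7, 75.5 and 124 CPM in HSC and at 20.3, 30.5 and 45.8 CPM in HPC-1 (a log2 difference of 1.38, SE 0.26, adjusted p = 0.00408). Of 5 endothelial and stromal genes tested, Pdgfrb was called lower, at most at 0.664 CPM in HSC and at 0, 5.37 and 52.6 CPM in HPC-1, and 0 of 4 were called without the libraries nearest HPC-2. The defining endothelial and stromal markers Cdh5, Cxcl12 and Col1a1 were too low to be tested, and the list summed to 0 to 148 CPM in HSC and 42.2 to 164 CPM in HPC-1.

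Among the largest rises outside the lists, Pls1, an actin-bundling protein, and Gkn3, a gastrokine, had no count in any HPC-1 library. Pls1 was at 7.04, 16.5 and 48.3 CPM in HSC, at least 359-fold higher (adjusted p = 0.000411), and Gkn3 at 0, 24.0 and 49.1 CPM, at least 341-fold higher (adjusted p = 0.00352). Timp3, an inhibitor of matrix proteases, also had no count in HPC-1, but its level in HSC ran from 0 in 2 libraries to 133 CPM in 1 (at least 434-fold higher, adjusted p = 0.0158), and its exons overlap those of Syn3 on the other strand. Fhl1, a LIM domain protein, and Trpc6, a calcium channel, had medians of 60.1 and 55.5 CPM in HSC and of 0 CPM in HPC-1 (adjusted p = 0.000472 and 0.000934). A long noncoding RNA gene, Gm10419, was at 4.79, 40.5 and 65.9 CPM in HSC and had counts in 1 HPC-1 library (adjusted p = 9.64e-05). Among the largest falls outside the lists, Ly6d, a marker of early lymphoid cells, and Sstr2, a somatostatin receptor, had no count in HSC and medians of 15.0 and 35.9 CPM in HPC-1 (at least 784-fold and 718-fold lower, adjusted p = 0.00501 and 0.00207).

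Each week was also tested alone, as 3 against 3 libraries with the spread taken from all 18. At 3 weeks 48 genes were called (0.368%), 20 higher (0.154%) and 28 lower (0.215%) in HSC. At 4 weeks 32 were called (0.246%), 17 higher (0.131%) and 15 lower (0.115%). At 5 weeks 66 were called (0.507%), 22 higher (0.169%) and 44 lower (0.338%). Of 97 genes called at any week, 31 were called at 2 or more and 18 at all 3 weeks. Single libraries moved these counts, from 18 without HPC-1 at 3 weeks replicate 1 up to 78 without HSC at 5 weeks replicate 2 for 3 weeks, from 11 without HSC at 4 weeks replicate 1 up to 39 without HSC at 5 weeks replicate 2 for 4 weeks, and from 34 without HPC-1 at 3 weeks replicate 1 up to 208 (148 higher and 60 lower) without HPC-1 at 5 weeks replicate 3 for 5 weeks. The counts therefore do not rank the weeks.

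The 18 genes called at each week were named after their values were seen. Higher in HSC at each week were Pf4, Cavin2, Gp1bb, Gng11, Cd9, Tmem40, Mllt3, Pdzk1ip1, Ppic, Rap1b and Serpina3g. Gng11, a G protein gamma subunit, was at 105, 262 and 544 CPM in HSC and at 12.1, 26.0 and 49.4 CPM in HPC-1, with log2 changes of 3.14, 3.28 and 3.70 at 3, 4 and 5 weeks. Serpina3g, a serine protease inhibitor of a family of close copies, was at 2447, 3342 and 3105 CPM in HSC at 3 weeks and between 477 and 598 CPM at 5 weeks. In HPC-1 it was at 826, 1021 and 1246 CPM at 3 weeks and at 216, 220 and 243 CPM at 5 weeks, so that the level differed between weeks in both populations while the log2 change was 1.47 at 3 weeks and 1.27 at 5 weeks (difference -0.20, adjusted p = 1.00).

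Lower in HSC at each week were Cd244, Cd34, Mcpt8, Gpr171, H2afy, Ldlrad4 and BC035044. H2afy, which encodes the histone variant macroH2A1, was at 185, 443 and 583 CPM in HSC and at 891, 1712 and 2577 CPM in HPC-1, with log2 changes of -2.16, -2.12 and -2.67. Gpr171, a G protein-coupled receptor, was at 57.3, 107 and 156 CPM in HSC and at 317, 398 and 846 CPM in HPC-1. BC035044, an uncharacterised protein-coding gene, had counts in 2 HSC libraries (up to 8.77 CPM) and was at 205, 485 and 738 CPM in HPC-1 (a log2 difference of -9.83, SE 1.03, adjusted p = 1.05e-05). All 3 were apart in the 18 libraries.

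**Figure D4:**
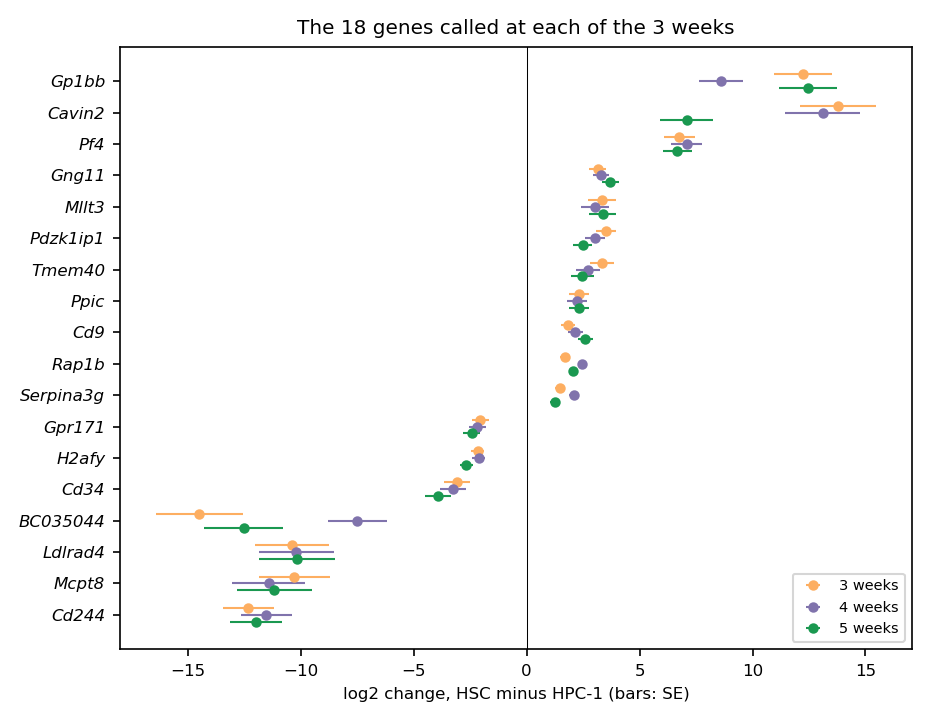
Log2 change of HSC minus HPC-1 at 3, 4 and 5 weeks, with SE bars, for the 18 genes called at each week. The 11 genes on the right were higher and the 7 on the left lower in HSC, and Gp1bb, Cavin2 and BC035044 show the widest spread between weeks.

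The difference itself was tested between 5 and 3 weeks, and 2 of 13026 genes were called (0.0154%; 1195 at an unadjusted p under 0.05). Efcab7, an EF-hand protein of cilia, had no count in HSC at 3 weeks and was at 28.9, 27.4 and 72.4 CPM in HSC at 5 weeks, against 24.4, 27.4 and 45.9 CPM in HPC-1 at 3 weeks and 40.5, 13.0 and 57.2 CPM in HPC-1 at 5 weeks (adjusted p = 0.0291). Mapk8, the stress kinase JNK1, likewise had no count in HSC at 3 weeks and was at 48.5, 72.5 and 16.8 CPM in HSC at 5 weeks, against 12.2, 17.8 and 33.5 CPM in HPC-1 at 3 weeks and 21.5, 21.9 and 28.9 CPM in HPC-1 at 5 weeks (adjusted p = 0.0388). In both genes the HSC libraries at 3 weeks alone stood apart, the same libraries that were nearest HPC-2, and that nearness was not tested as a source. Over the 18 fits that leave out 1 library the count ran from 0 to 60, the highest without HPC-1 at 5 weeks replicate 3, and Efcab7 and Mapk8 were lost in 11 and 13 of them.

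The early differences were then set beside those at steady state, from libraries that share none with the early ones. At steady state 113 of 10270 genes were called (1.1%), 39 higher (0.38%) and 74 lower (0.721%) in HSC. Single libraries moved this count, to 203 without HSC at steady state replicate 1 and 175 without replicate 3. HSC replicate 1 had nearly the same counts as an HPC-2 library (chi-square per degree of freedom 4.50), as had HPC-1 at steady state replicate 7 (2.01). Leaving out both of these gave 144 calls, of which 109 were called early in the same direction (75.7%). Without HSC replicates 1, 3 and 8, which had 8091, 7779 and 8590 genes with a count, 431 were called. All 113 were tested at 3 to 5 weeks, 111 had the same sign there, and 85 were called in the same direction (30 higher and 55 lower), which is 75.2% of the steady-state list and 18.6% of the early list. None was called in the opposite direction. Without those 3 libraries 183 of the 431 genes were called early in the same direction (42.5%) and 0 in the opposite one. The median log2 change of the 39 genes was 3.00 early and 3.12 at steady state, and that of the 74 was -4.75 early and -5.50 at steady state. Conversely, of the 458 genes called early, 285 were tested at steady state and 268 of these had the same sign.

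**Figure D5:**
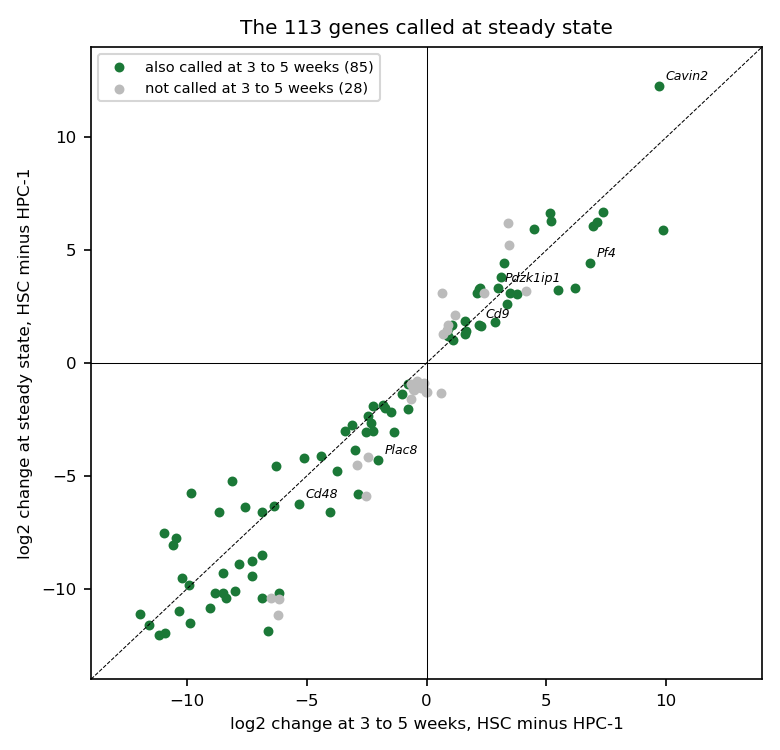
Log2 change at steady state against that at 3 to 5 weeks for the 113 genes called at steady state, with the line of equality dashed. The 85 genes called at both times are green, the other 28 grey, and 111 of 113 lie in the quadrants of equal sign.

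Genes of the platelet, stem cell and progenitor groups were on both lists. Pf4 had a steady-state log2 change of 4.44 (SE 0.51), with means of 459 ± 272 CPM in HSC against 17.7 ± 13.1 CPM in HPC-1 (SD, n = 8 each), against 1393 ± 681 and 12.2 ± 8.73 CPM early (n = 9 each). The early minus steady-state difference of Pf4, 2.40 (SE 0.56), was not called (adjusted p = 0.221). Apoe, the gene of apolipoprotein E, had a change of 3.80 at steady state and 3.09 early, where it was at 386, 734 and 1200 CPM in HSC and at 0.426, 93.0 and 205 CPM in HPC-1. Uba7, the activating enzyme of the ubiquitin-like protein ISG15, had changes of 3.26 at steady state and 2.2 early. Plac8 averaged 185 ± 120 CPM in HSC against 3038 ± 1371 CPM in HPC-1 at steady state (log2 change -4.32, against -2.01 early), a difference that missed the threshold (2.29, SE 0.46, adjusted p = 0.0746). Ccl9, a chemokine, was lower by log2 changes of -10.19 at steady state and -6.17 early. Of the 28 genes called at steady state alone, Gata2, a transcription factor of HSC, had a change of 3.12 at steady state and 0.65 early, and the difference of -2.45 was not called (adjusted p = 0.221). A gene called at one time and not at the other is thus not shown to differ between them.

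The early minus steady-state difference was called for 2 of 14397 genes (0.0139%; 904 at an unadjusted p under 0.05). Rap1b, a small GTPase needed for integrin activation in platelets, was at 1974, 1648 and 1873 CPM in HSC at 3 weeks, at 3285, 2000 and 2416 CPM at 4 weeks and at 2365, 1858 and 1886 CPM at 5 weeks. In HPC-1 it stayed between 445 and 599 CPM in all 9 libraries. At steady state it averaged 940 ± 193 CPM in HSC against 537 ± 77.9 CPM in HPC-1 (SD, n = 8 each). The population difference was 2.08 (SE 0.13) early and 0.67 (SE 0.18, adjusted p = 0.106) at steady state, with a difference of 1.42 (SE 0.19, adjusted p = 0.000309). Rabgap1l, a GTPase-activating protein for RAB proteins, was lower in HSC at steady state (log2 change -1.32, adjusted p = 0.0106) and not called early (0.60, adjusted p = 0.187), and the difference was 1.93 (SE 0.35, adjusted p = 0.0304). The call of Rabgap1l was lost in 21 of 34 fits that leave out 1 library (adjusted p up to 0.0863), while Rap1b was called in all of them. Rabgap1l means were 254 ± 83.0 CPM in HSC against 552 ± 161 CPM in HPC-1 at steady state, against 417 ± 245 and 265 ± 165 CPM early.

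Later after transplant, over 6 to 16 weeks, 1090 of 14900 genes were called (7.32%), 494 higher (3.32%) and 596 lower (4%) in HSC, with 15 libraries of each population. Among these, HPC-1 at 8 weeks replicate 3 and HPC-1 at 10 weeks replicate 3 had nearly the same counts (chi-square per degree of freedom 2.18), as had HPC-1 at 13 weeks replicate 2 and an HPC-2 library at steady state (2.04). The number of separate samples may thus be below 15, and leaving such libraries out gave 591 calls, of which 548 stand on the list of 1090. Of the early list 444 of 458 had the same sign later and 277 were called in the same direction, which is 60.5% of the early list and 25.4% of the later list. No gene was called for the early minus later difference in the edgeR test of 14900 genes (714 at an unadjusted p under 0.05), while DESeq2 called 476 and limma 32. Pf4 averaged 1309 ± 891 CPM in HSC against 22.1 ± 17.6 CPM in HPC-1 later (SD, n = 15 each), and Rap1b 1516 ± 752 and 518 ± 97.8 CPM. Mcpt8, at 0 in all 9 early HSC libraries, had counts in 5 of 15 later HSC libraries, up to 78.6 CPM.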

How the data were processed

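Bulk RNA-seq was used as 1 deposited table of counts per gene for 95 libraries. Reads were handled with Trimmomatic 0.36, HISAT2 2.0.5, Picard and featureCounts on GRCm38/mm10, per the submitters' processing notes. The annotation and the strand setting are not given in the sources used here, so reads of overlapping genes on opposite strands cannot be told apart. The table held 53465 gene entries, 3433 of them without a symbol. Libraries were grouped by title. The members and the gene lists were chosen with earlier results of these data known.

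Counts were tested as deposited with edgeR 4.0.16 in R 4.3.3 (TMM scaling, filter on low counts by group, quasi-likelihood F test, Benjamini-Hochberg adjustment over all genes tested, threshold 0.05). The early test used the 18 libraries with week as a block. The 3 weeks, the steady state, the later weeks and the differences between stages had fits of their own. CPM were computed on library totals. Genes with no count in 1 population are given against a floor of 3 counts over its 9 libraries, from counts pooled per population.

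Named genes were, among called genes of at least 10 CPM on average with at least 15 of 18 libraries falling, by the midpoint of the population means, with their own population, the 10 largest rises and 10 largest falls. Also named were up to 4 list members with the smallest p, the sort markers and the 8 steady-state genes with the smallest p in each direction. Some genes that these rules name are not reported here. Other genes were chosen after their values were seen. Alternatives were DESeq2 1.42.0, limma 3.58.1 (voom with quality weights), other scalings, filters and designs, and leaving out libraries. Some of the edgeR tests across genes were tested on simulated data. Those of the later weeks and of the early minus later difference were not, nor were DESeq2 and limma. Positions are from the GENCODE annotation of GRCm38 and promoter windows from RefSeq (GRCm38.p6).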

Additional observations from a re-analysis of the deposited data

Results flagged for a closer look

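Single libraries stood apart from the other 8 of their population on the log2(CPM + 1) scale in 31 of 176 groups examined (17.6%), by a gap above Dixon's 95% critical value for 9 samples. Chance gives about 1 in 20 for normally distributed values. That rate does not apply to genes with libraries at 0, and in 7 of the 31 groups all 8 other libraries had no count. The libraries behind these gaps repeat.

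In HSC at 3 weeks, replicate 2 was the lowest for Aldh1a1 (7.32 CPM, others 51.8 to 174), Gm10419 (4.79, others 18.5 to 65.9) and Kit (6.25, others 51.8 to 182), and was the only HSC library with counts of Trbc2 (7.45 CPM). Replicate 3 was the lowest for Pdzk1ip1 (198 CPM, others 295 to 413) and Trpc6 (0 CPM, others 25.0 to 165). At 4 weeks HSC replicate 3 was the highest for Flt3 (6.64 CPM), BC035044 (8.77 CPM) and Mx1 (0.133 CPM), with the other HSC libraries at most at 0.801, 0.160 and 0 CPM.

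At 5 weeks HSC replicate 3 held 36.5 CPM of Dntt, 42.8 CPM of Cd79a and 80.6 CPM of Ifi27l2a, against at most 0.126, 0 and 29.3 CPM in the others, and 0 CPM of Gkn3. HSC replicate 1 had the least Cd34 (16.2 CPM, others 61.7 to 185). HSC replicate 2 had the least Cdkn2d (75.0 CPM, others 140 to 192) and Procr (0.480 CPM, others 16.3 to 87.3).

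In HPC-1 at 5 weeks, replicate 2 was the lowest for Dntt (75.8 CPM, others 603 to 1776), Rag2 (0 CPM, others 17.9 to 79.3) and Cdkn2d (15.5 CPM, others 44.5 to 85.2). It also had the largest share of mitochondrial counts, 2.85% against 0.632% to 1.49% in the others. Replicate 1, the library nearly identical with one of HPC-2, was the lowest for Apoe (0.426 CPM, others 34.6 to 205) and Kit (10.0 CPM, others 57.7 to 211). Replicate 3 had 1.78 CPM of Cavin2, 1.25 CPM of Treml1 and 2.32 CPM of Trpc6, and no count of Tcrg-C1 (others 15.5 to 150).

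In HPC-1 at 4 weeks replicate 3 had 1.38 CPM of Ppbp and 1.15 CPM of Fhl1, and replicate 2 had 1.29 CPM of Gm10419. In HPC-1 at 3 weeks replicate 3 had no count of Cma1 (others 63.1 to 511 CPM) and the most Cd244 (180 CPM, others 54.5 to 97.3).

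The population difference itself differed between stages for 4 genes by edgeR's quasi-likelihood test with Benjamini-Hochberg adjustment. Between 5 and 3 weeks the fitted log2 differences were 10.76 for Efcab7 and 10.81 for Mapk8, and rest on 0 counts in the 3 HSC libraries at 3 weeks, so that these are no bounds. Early minus steady state, they were 1.42 for Rap1b and 1.93 for Rabgap1l.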

How the results depend on the processing

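Of 458 genes called early, 449 remained with RLE scaling (460 called), 413 with no filter on low counts (518), 445 with a robust edgeR fit (451) and 436 with limma. DESeq2 called 858 genes early and limma with sample weights 1063, a mean of at least 10 CPM left 271, weeks 4 and 5 alone 155, weeks 3 and 5 alone 84, and leaving out the libraries nearest HPC-2 94. Leaving out 1 library gave 332 to 423. In weeks 3 and 4 alone, 14 of 19 platelet and megakaryocyte genes were called higher and 10 of 17 lymphoid genes lower. Of 28 stem cell identity genes, 12 were then higher and 1 lower, and of 18 granulocyte-monocyte genes, 0 higher and 1 lower. Most of these alternatives test fewer genes or libraries, or use another estimate of the spread, and the cause of the differences was not tested. The robust fit and leaving out the near-identical library or the one with neutrophil transcripts were chosen after seeing the data. Of 72 named genes called early, 31 were called under all alternatives that gave them a value, and 0 reversed under any. Among these 31 were Pf4, Cavin2, Gp1bb, Rap1b, Cd34, Cd244, Flt3 and H2afy. Flt3 had a value under 32 of the 33 alternatives.

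At 3, 4 and 5 weeks, no filter on low counts gave 85, 72 and 131 calls, DESeq2 615, 255 and 859, and limma 320 and 725 at 3 and 4 weeks. Leaving out 1 library gave 18 to 78, 11 to 39 and 34 to 208. The 5 week minus 3 week difference had 5 calls with no filter, 405 with DESeq2, 1 with limma, 1 with the robust fit and 0 to 60 with 1 library left out. At steady state there were 238 calls with no filter, 276 with DESeq2, 873 with limma, 431 without libraries of few detected genes and 102 to 203 with 1 library left out. Early minus steady state gave 1 call with RLE scaling, 4 with no filter, 4 at 10 CPM, 261 with DESeq2, 89 with limma, 5 without near-identical libraries, 11 without libraries of few detected genes and 1 to 6 with 1 left out. Early minus later gave 48 with no filter, 476 with DESeq2, 32 with limma and 0 to 5 with 1 left out. The difference at 6 to 16 weeks gave 624 calls at 10 CPM, 2328 with DESeq2, 2272 with limma, 591 without near-identical libraries and 760 to 1468 with 1 left out. RLE scaling shifted the median of all genes at steady state to 0.13, against -0.02 with TMM, and that of early minus steady state to -0.35, against -0.12.

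Same-numbered libraries showed little shared deviation (9 correlations, -0.0751 to 0.0542), though 5 of 9 HSC libraries correlated best with their own number. The deviations were taken from means of 3 libraries, so this check is weak and cannot exclude pairs. The names of the count columns number same-numbered early libraries of the populations in a row, so a shared source is possible, but the labels do not state it. The numbers were not taken as pairs in the main tests. With the replicate block, 243 genes were called early, 7, 11 and 8 at 3, 4 and 5 weeks, 0 for 5 minus 3 weeks, 116 at steady state, 1 for early minus steady state, 0 for early minus later and 376 at 6 to 16 weeks.

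Some genes that were not called changed sign. Kit, Hlf and Ly6a were near no difference. Efcab7, Mapk8 and Cd79a had larger main log2 changes of -1.38, -1.98 and -3.92 (edgeR test, adjusted p = 0.802, 0.642 and 0.730). Kit was at 0.0045 with RLE scaling, 0.032 at 10 CPM, 0.0047 with DESeq2, 0.0035 without the HSC library with neutrophil transcripts, 0.0096 without the week block, 0.33 in weeks 3 and 5, 0.078 without the libraries nearest HPC-2 and -0.31 to 0.16 with 1 left out. Hlf was at -0.34 in weeks 4 and 5, -0.28 without the libraries nearest HPC-2 and -0.049 to 0.39 with 1 left out. In weeks 4 and 5 Efcab7 was at 0.18, and without the libraries nearest HPC-2 Efcab7 was at 0.24, Mapk8 at 0.10 and Ly6a at 0.043. Cd79a was at 1.07 without the week block and 0.35 in weeks 3 and 5.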
